A study of Mus musculus with 6 samples.

Results

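The 44 collagen chain genes were all genes of the deposited mouse table with a symbol of the form Col, a number, the letter a and a number, out of 24532 genes. They comprised 11 fibrillar, 9 basement membrane and 24 other collagen genes. Bulk RNA-seq had been performed on kidney and ureter at PN1 (postnatal day 1), the stage given by the study's methods. There were 2 kidney libraries labelled Ahnak KO, 2 WT kidney libraries, 1 ureter library labelled Ahnak KO and 1 WT ureter library. The KO mice carried a disrupted exon 5 of Ahnak. The methods state 2 biological replicates and that 2 to 4 kidneys or ureters were collected for RNA, so a library may pool several organs. They give no strain, sex or litter for these libraries. The ureter libraries were titled as a replicate 3 of kidney, and their source label and column names placed them as ureter.

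Collagens are extracellular proteins built from chains that carry long runs of the repeat Gly-X-Y and wind around each other into a rope-like helix. Fibrillar collagens (types I, II, III, V, XI, XXIV and XXVII) form the cable-like fibrils that give connective tissue and the walls of hollow organs their tensile strength. Type IV collagen forms the sheet-like network of basement membranes. In the kidney, the chains encoded by Col4a3, Col4a4 and Col4a5 build the mature glomerular basement membrane made by podocytes, and their human counterparts are the genes of Alport syndrome. The other collagens form beaded filaments (type VI), attach to fibril surfaces (the FACIT collagens) or span the plasma membrane. The ureter is a tube of urothelium surrounded by stroma, smooth muscle and an outer adventitia.

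The Gly-X-Y repeat was visible in the exons of the members, which are shown here because the classes differed in exon length. Among the coding transcripts with the longest coding sequence in GENCODE M21 (build GRCm38), 47.0% of the 649 coding exons of the fibrillar genes were exactly 54 bases long. The share was 4.44% for the basement membrane genes, 16.5% for the other collagen genes and 0.68% over the 21866 coding genes annotated. The other class was uneven, from 0% in Col8a1 to 44.4% in Col22a1. Col9a2 and Col9a3 were at 43.75%, against 41.2% in the fibrillar gene Col1a1. Each fibrillar gene had 21 to 33 such exons, whereas each of the 6 type IV genes had 1 to 3. Exons of a multiple of 9 bases, the length of 1 repeat, were above the background in every class. Their share was 82.4% for the fibrillar, 48.7% for the basement membrane and 53.8% for the other collagen genes, against 14.5% over all coding genes. In the exons printed, the glycine codons are in capitals and each begins a Gly-X-Y repeat. They lie at chr6:4515481-4515534 for Col1a2 (plus strand, coding exon 8 of 52), at chr1:45325360-45325413 for Col3a1 (plus strand, coding exon 6 of 51), at chr15:97998545-97998598 for Col2a1 (minus strand, coding exon 6 of 54) and at chr17:34051480-34051533 for Col11a2 (plus strand, coding exon 15 of 66). The exon printed for each gene is its first of 54 bases that starts in frame and opens each repeat with a glycine codon. The shared pattern, in which 6 of the 18 codons encode glycine, was therefore fixed by the choice of exon. Col1a2 and Col3a1 were higher in ureter than in kidney, and Col2a1 and Col11a2 were lower.
Col1a2: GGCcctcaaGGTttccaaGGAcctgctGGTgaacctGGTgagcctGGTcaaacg
Col3a1: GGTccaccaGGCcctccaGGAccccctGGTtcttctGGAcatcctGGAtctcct
Col2a1: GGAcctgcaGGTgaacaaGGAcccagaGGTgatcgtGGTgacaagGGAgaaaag
Col11a2: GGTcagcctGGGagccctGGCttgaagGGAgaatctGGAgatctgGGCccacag

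Upstream sequences of genes that moved together between ureter and kidney are shown next. RefSeq windows (build GRCm38.p6, 250 bases upstream of a transcript start) were matched by symbol for 35 of the 44 members, in 38 windows. Each printed run holds 120 bases in gene direction and is the run nearest to the start that touches no annotated exon or collagen gene. Its last base lies 1 base before the start for Col3a1 and Col24a1. For the other genes printed it lies 20 (Col4a6) to 126 (Col1a2) bases before the start, and the bases between are not shown. Capitals mark 3 motifs on either strand: the TATA box searched as TATAAA, the CCAAT box searched as its name, and the GC box searched as GGGCGG. None of these overlapped another in the printed runs. Of the genes higher in ureter, Col1a2 is at chr6:4505373-4505492 (plus strand), Col3a1 at chr1:45311418-45311537 (plus strand), Col5a1 at chr2:27886261-27886380 (plus strand) and Col5a3 at chr9:20815118-20815237 (minus strand). Of the genes lower in ureter, Col11a1 is at chr3:114030359-114030478 (plus strand) and Col24a1 at chr3:145292352-145292471 (plus strand). Col4a5, at chrX:141475250-141475369 (plus strand), and Col4a6, at chrX:141474096-141474215 (minus strand), are the outward-facing ends of one stretch of 1274 bases between these neighbours.
Col1a2: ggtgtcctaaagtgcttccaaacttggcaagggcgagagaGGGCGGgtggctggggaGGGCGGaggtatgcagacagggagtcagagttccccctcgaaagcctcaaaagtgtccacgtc
Col3a1: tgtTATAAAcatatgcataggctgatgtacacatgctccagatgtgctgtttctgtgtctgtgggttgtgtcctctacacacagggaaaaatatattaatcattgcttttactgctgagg
Col5a1: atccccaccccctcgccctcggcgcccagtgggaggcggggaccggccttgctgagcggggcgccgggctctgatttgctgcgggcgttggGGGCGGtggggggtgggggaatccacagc
Col5a3: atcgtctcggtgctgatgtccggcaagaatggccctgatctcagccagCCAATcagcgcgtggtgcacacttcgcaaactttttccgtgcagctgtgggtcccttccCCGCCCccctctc
Col11a1: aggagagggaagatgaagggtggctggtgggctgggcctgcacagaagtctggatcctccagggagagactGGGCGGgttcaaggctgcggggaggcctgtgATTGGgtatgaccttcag
Col24a1: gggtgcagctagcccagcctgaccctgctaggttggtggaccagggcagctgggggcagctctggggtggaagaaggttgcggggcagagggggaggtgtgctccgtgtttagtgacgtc
Col4a5: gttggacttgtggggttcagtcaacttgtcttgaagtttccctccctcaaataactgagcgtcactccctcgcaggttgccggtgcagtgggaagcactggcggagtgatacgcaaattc
Col4a6: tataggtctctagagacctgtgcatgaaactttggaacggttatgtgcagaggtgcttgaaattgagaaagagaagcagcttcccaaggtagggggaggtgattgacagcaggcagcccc

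Over the full 250 bases, GGGCGG was found in 22 of the 38 collagen windows (57.9%) and in 32.7% of all 32851 windows of that length. It was present in 14 of the 20 windows of genes higher in ureter and in 4 of the 8 windows of genes lower in ureter. CCAAT was found in 34.2% of the collagen windows and 33.9% of all windows, and TATAAA in 13.2% and 12.4%. These are matches of letters only.

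The libraries held 36410246 (KO ureter) to 66095616 (WT kidney 1) estimated counts. Collagen genes took 0.709% to 0.873% of the counts in the kidneys and 1.95% in each ureter. The targeted gene was still read in the libraries labelled KO. Ahnak stood at 20.6 and 22.1 TPM (a level corrected for gene length and library size) in the kidneys labelled KO and at 27.7 and 24.7 TPM in the WT kidneys. In ureter, Ahnak was at 88.0 TPM in the library labelled KO and 77.5 TPM in WT, with 18895 and 37439 counts. The measures differed in direction: relative to library totals of 36410246 and 54985927 counts, Ahnak was lower in the ureter library labelled KO. The counts are per gene and do not show whether exon 5 was covered, so the KO labels could not be checked this way and are used as given. KO kidney 1 stood apart by Xist, with 176348 counts and 0 counts from Y genes, against 17 to 36 Xist counts and 8415 to 18055 Y counts in the other libraries. KO ureter held 2935456 counts of the ribosomal gene Rn45s against 276646 to 358977 elsewhere. The tissue labels matched their markers. Urothelium markers summed to 88.2 to 105 TPM in the kidneys and 8247 and 8683 TPM in the ureters, while kidney tubule and podocyte markers summed to 1165 to 1290.2 TPM and 12.3 and 15.0 TPM.

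**Figure D1:**
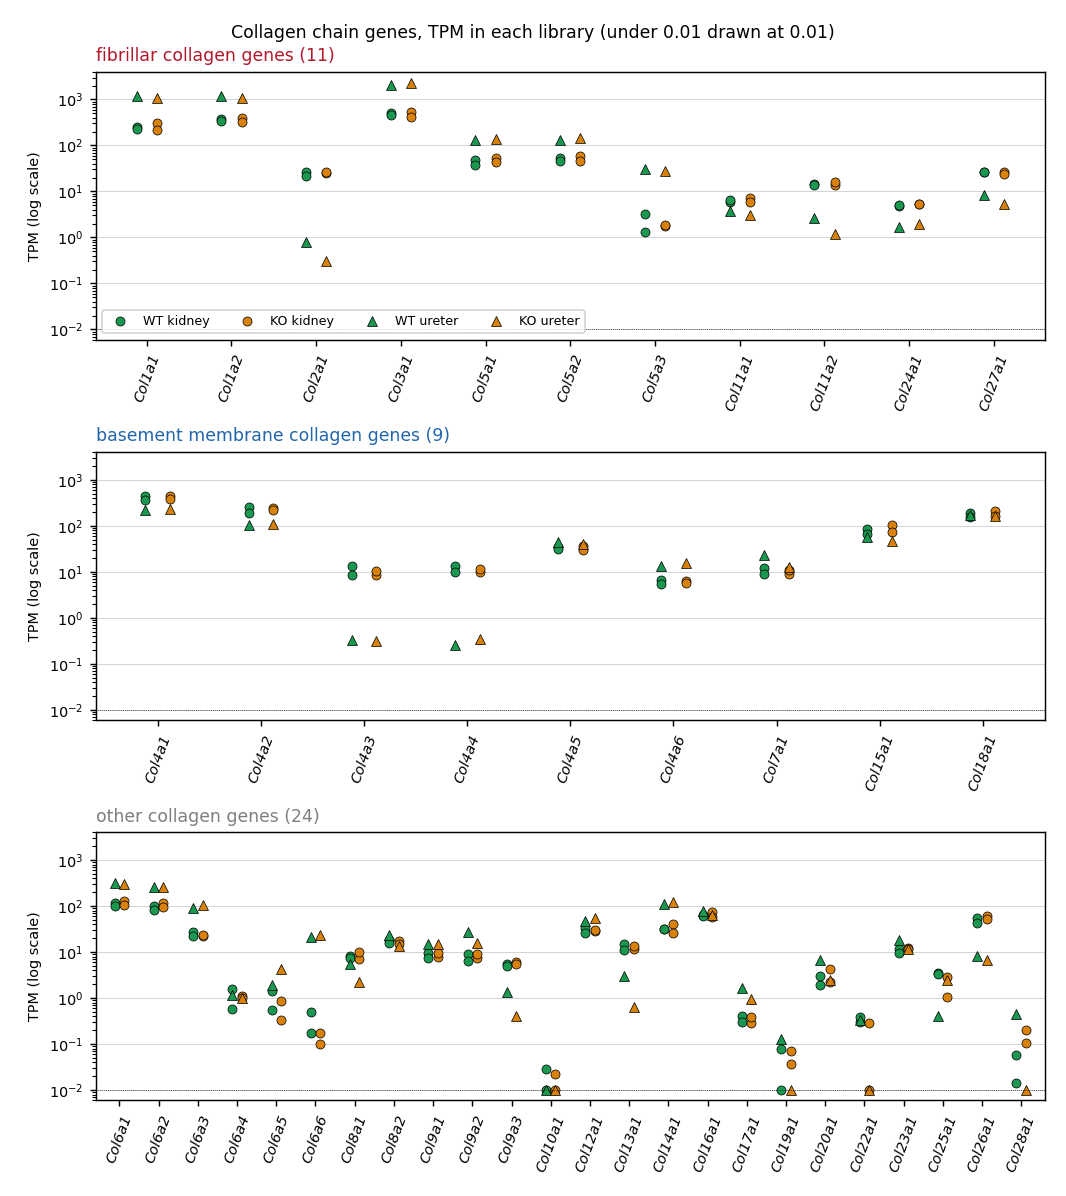
TPM of each of the 44 collagen genes (log axis) in each library, with circles for kidney, triangles for ureter, green for WT and orange for libraries labelled Ahnak KO, drawn in a panel for each class. Values under 0.01 are drawn at 0.01. The ureter triangles lie above the kidney circles for Col1a1, Col3a1 and Col6a6, far below them for Col2a1, Col4a3 and Col4a4, and circles of both colors lie close together for most genes.

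Collagen genes as a whole were more abundant in the ureter than in the kidney, and the classes moved in different ways. Summed over all members, collagen stood at 2460 to 3072 TPM in the kidneys and at 6420 and 6439 TPM in the ureters. Of the 43 members that passed the count filter, 22 were higher and 12 were lower in ureter by the edgeR quasi-likelihood test (adjusted p under 0.05, genotype as a term, 3 residual degrees of freedom). Over all 16873 genes tested, 21.4% were called higher and 23.7% lower. The median log2 fold change, ureter over kidney, was 0.77 for the collagen genes and -0.08 for all genes. It was 1.85 for the fibrillar genes (6 higher and 5 lower of 11), -0.30 for the basement membrane genes (3 higher and 4 lower of 9) and 0.98 for the other collagen genes (13 higher and 3 lower of the 23 tested). Fewer cells of a type and less RNA per cell cannot be told apart in these bulk libraries. Without KO kidney 1, 22 members were called higher and 10 lower. Of the 34 calls, 26 held in each of 18 alternatives (17 higher and 9 lower), and none of the 34 changed sign. Scaling by library size alone moved the median of all genes to -0.36 and the share of higher calls among all called genes from 47.4% to 28.0%, and it left 19 collagen genes higher and 13 lower.

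**Figure D2:**
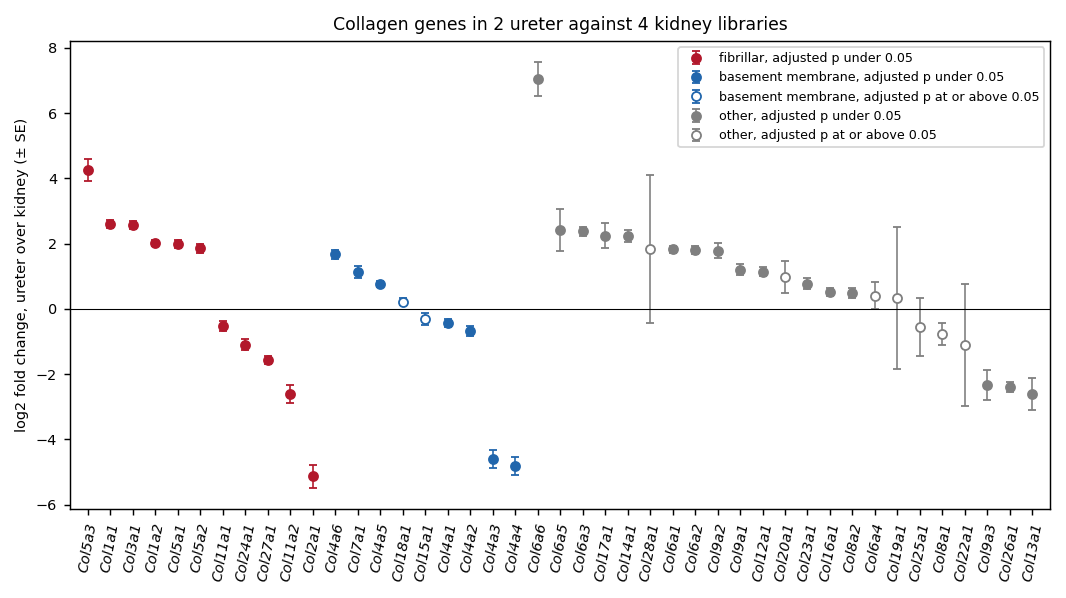
Log2 fold change of ureter over kidney (y axis, points with ± SE from edgeR) for the 43 collagen genes tested, ordered by size within the fibrillar (red), basement membrane (blue) and other (gray) classes. Filled points had an adjusted p under 0.05. The fibrillar genes split into 6 above 0 and 5 below 0, and the range runs from 7.04 for Col6a6 to -5.13 for Col2a1.

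The chains of types I and III collagen, the fibrillar collagens of ordinary connective tissue, were higher in ureter. Col3a1, the type III chain of distensible organs, stood at 504, 453, 540 and 419 TPM in WT kidney 1, WT kidney 2, KO kidney 1 and KO kidney 2, and at 2074 TPM in WT ureter and 2289 TPM in KO ureter. Every kidney library lay far below both ureters, and the log2 fold change was 2.57 ± 0.11 (SE). Col1a1, a chain of type I collagen, was at 246, 229, 305 and 215 TPM in the kidneys in that order and at 1193 and 1095 TPM in the WT and KO ureters. The groups did not overlap, and Col1a1 was 6.02-fold higher in ureter (log2 2.59 ± 0.13, edgeR adjusted p = 3.27e-05). Such fold changes come from scaled counts, not from the TPM printed, and scaling by library size alone gave Col1a1 a log2 of 2.30. Its partner chain Col1a2 was at 376, 339, 403 and 322 TPM in the kidneys and at 1176 and 1071 TPM in the ureters, a log2 fold change of 2.03 ± 0.10. The TPM ratio of Col1a1 to Col1a2 was lower in each kidney (0.65 to 0.76) than in the ureters (1.01 and 1.02).

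Type V collagen, which sits inside type I fibrils and limits their thickness, rose with them. Col5a1 was at 38.1 to 53.0 TPM in the kidneys and 132 and 140 TPM in the WT and KO ureters, and Col5a2 at 45.5 to 60.2 TPM and 133 and 147 TPM. Their log2 fold changes were 1.97 ± 0.12 and 1.85 ± 0.13. The third type V chain, Col5a3, stood at 3.24, 1.29, 1.79 and 1.85 TPM in WT kidney 1, WT kidney 2, KO kidney 1 and KO kidney 2 and at 31.3 and 28.3 TPM in the WT and KO ureters. The groups were well apart, and Col5a3 had the largest increase of the fibrillar genes (log2 4.26 ± 0.33). Its TPM ratio to Col5a1 was 0.03 to 0.07 in the kidneys and 0.24 and 0.20 in the WT and KO ureters.

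The other 5 fibrillar genes were lower in ureter. Col2a1, the main collagen of cartilage, was at 27.0, 21.7, 25.2 and 26.0 TPM in WT kidney 1, WT kidney 2, KO kidney 1 and KO kidney 2, and at 0.81 and 0.30 TPM in the WT and KO ureters. All 4 kidneys were far above both ureters (log2 -5.13 ± 0.35, and -5.94 without WT ureter). Col11a2, a type XI chain that copolymerizes with type II collagen in cartilage, was at 13.8 to 15.7 TPM in the kidneys and 2.65 and 1.19 TPM in the ureters (log2 -2.60 ± 0.27). The cartilage and bone marker list summed to 7.95 to 9.35 TPM in the kidneys and to 19.9 and 20.1 TPM in the WT and KO ureters. Most of the ureter sum was Bglap, at 13.9 and 13.4 TPM there and 0.21 to 0.88 TPM in the kidneys. The cartilage genes Acan and Matn1 were at 0.035 to 0.10 and 0 to 0.39 TPM in the kidneys. In the WT and KO ureters, Acan was at 0.45 and 0.056 TPM and Matn1 at 0 TPM in both. Hapln1 was at 6.42 to 8.44 TPM in the kidneys and 3.02 and 4.81 TPM in the ureters. The part of these marker genes in the Col2a1 and Col11a2 differences was not tested. Col27a1 was at 24.2 to 27.0 TPM in the kidneys and 8.40 and 5.40 TPM in the ureters, and Col24a1 at 4.81 to 5.33 TPM and 1.64 and 2.0 TPM. Their log2 fold changes were -1.56 ± 0.13 and -1.11 ± 0.17. Col11a1 was the least changed, at 5.91 to 7.32 TPM in the kidneys and 3.75 and 3.12 TPM in the ureters (log2 -0.53 ± 0.15). Its call was lost when any library but WT kidney 1 was left out, with a log2 fold change of -0.44 without KO ureter and -0.62 without WT ureter.

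The type IV genes lie in head-to-head pairs, and the members of each pair moved in the same direction. Col4a1 and Col4a2, which encode the network chains of nearly all basement membranes, overlap by 85 bases at their starts on chromosome 8. Col4a1 was at 442, 367, 453 and 377 TPM in WT kidney 1, WT kidney 2, KO kidney 1 and KO kidney 2 and at 225 and 238 TPM in the WT and KO ureters. Col4a2 was at 256, 188, 244 and 219 TPM and at 105 and 111 TPM. No ureter value reached a kidney value for either gene, and the log2 fold changes were -0.44 ± 0.12 and -0.68 ± 0.15. The Col4a1 call was lost without KO kidney 1 (log2 -0.41) and without WT ureter (-0.34), and the Col4a2 call without WT ureter (-0.59).

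The glomerular chains fell much further. Col4a3 and Col4a4 overlap by 114 bases on chromosome 1. Col4a3 stood at 13.1, 8.72, 8.57 and 10.6 TPM in WT kidney 1, WT kidney 2, KO kidney 1 and KO kidney 2, and at 0.33 and 0.31 TPM in the WT and KO ureters. Col4a4 was at 13.6, 9.90, 10.1 and 11.4 TPM and at 0.26 and 0.35 TPM. Both were near the bottom of their range in the ureters, with log2 fold changes of -4.61 ± 0.28 and -4.82 ± 0.29. The podocyte marker Nphs1 stood beside this at 12.1 to 19.1 TPM in the kidneys, and was listed at 0 counts in both ureters. The TPM ratio of Col4a3 to Col4a4 stayed near 1 in every library, from 0.85 to 1.28.

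The X-linked pair moved the opposite way. Col4a5 was at 34.3, 31.1, 36.5 and 30.2 TPM in WT kidney 1, WT kidney 2, KO kidney 1 and KO kidney 2 and at 45.4 and 40.7 TPM in the WT and KO ureters. Col4a6, the partner chain found in basement membranes around smooth muscle, was at 6.57, 5.30, 6.25 and 5.65 TPM and at 13.6 and 15.3 TPM. Both ureters lay above the 4 kidneys for both genes, with log2 fold changes of 0.77 ± 0.10 for Col4a5 and 1.67 ± 0.14 for Col4a6. The TPM ratio of Col4a5 to Col4a6 was 5.22 to 5.88 in the kidneys and 3.34 and 2.65 in the WT and KO ureters. Smooth muscle markers summed to 495 to 604 TPM in the kidneys and to 4797 and 3676 TPM in the ureters, and their part in this difference was not tested. In KO kidney 1, the library with high Xist, Col4a5 was the highest of the 4 kidneys and Col4a6 lay within their range.

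**Figure D3:**
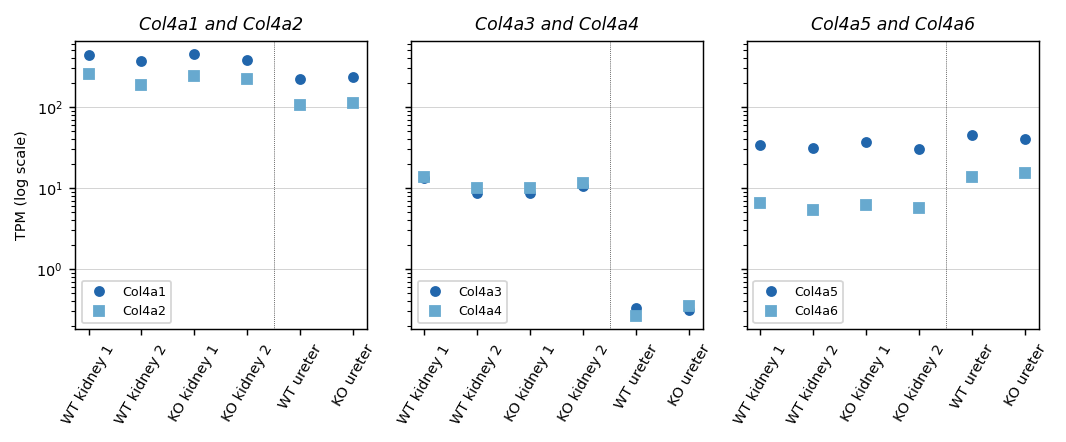
TPM (log axis, shared) of the 6 type IV collagen genes in the 4 kidney and 2 ureter libraries, with 1 panel for each head-to-head pair and a dotted line between the organs. Col4a3 and Col4a4 drop from 8.57 to 13.6 TPM in the kidneys to 0.26 to 0.35 TPM in the ureters, Col4a1 and Col4a2 drop less, and Col4a5 and Col4a6 lie higher in the ureters.

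The remaining basement membrane genes were mixed. Col7a1, whose product forms the anchoring fibrils beneath stratified epithelia, was at 8.98 to 12.1 TPM in the kidneys and at 22.9 and 12.8 TPM in the WT and KO ureters (log2 1.13 ± 0.20). Col15a1, a multiplexin of vessel and muscle basement membranes, was at 66.5 to 103 TPM and at 57.0 and 45.6 TPM. It was not called (log2 -0.30 ± 0.18, edgeR adjusted p = 0.214) but was called lower when scaled by library size alone (log2 -0.59). Col18a1, the source of endostatin, was at 155 to 210 TPM in the kidneys and 173 and 159 TPM in the ureters. Its ranges overlapped, and its log2 fold change of 0.23 ± 0.12 became -0.06 when scaled by library size alone.

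These shifts changed the makeup of the collagen transcripts. Fibrillar genes made up 44.9% to 48.0% of the summed collagen TPM in the kidneys and 73.9% and 74.5% in the WT and KO ureters. Basement membrane genes made up 34.2% to 36.5% in the kidneys and 9.98% and 9.71% in the ureters. The other collagens held a similar share in both organs, 17.9% to 19.0% and 16.2% and 15.8%. In absolute level, fibrillar TPM went from 1123 to 1441 in the kidneys to 4756 and 4783 in the ureters.

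**Figure D4:**
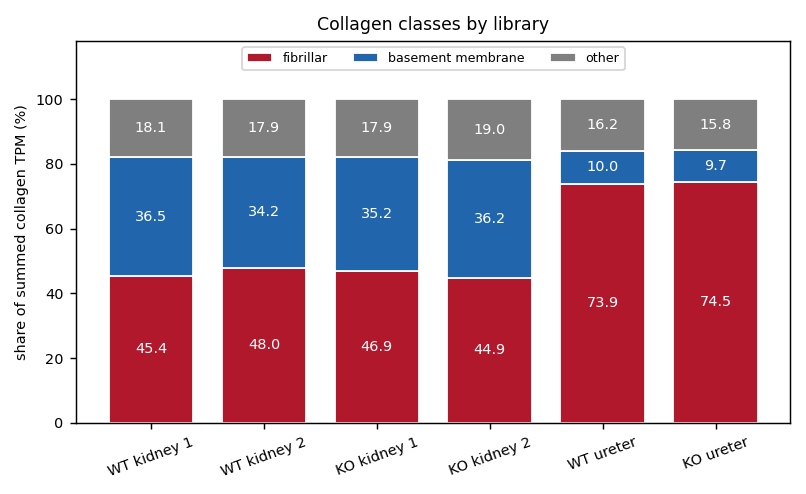
Share of the summed collagen TPM (%) held by fibrillar, basement membrane and other collagen genes in each of the 6 libraries. The fibrillar share is 44.9 to 48.0% in the kidneys and 73.9 and 74.5% in the ureters, and the WT and KO libraries of an organ look alike.

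Type VI collagen, which forms beaded filaments around cells, was higher in ureter in 5 of its 6 genes. Col6a1 and Col6a2, the common chains, were at 101 to 130 and 81.7 to 116 TPM in the kidneys, and both ureters were at 306 to 312 TPM for Col6a1 and 261 to 266 TPM for Col6a2. Their log2 fold changes were 1.82 ± 0.11 and 1.81 ± 0.12. Col6a3 was at 21.9 to 27.0 TPM and 89.7 and 107 TPM in the WT and KO ureters (log2 2.37 ± 0.13). Col6a6 showed the largest change of all members. It was at 0.50, 0.17, 0.10 and 0.18 TPM in WT kidney 1, WT kidney 2, KO kidney 1 and KO kidney 2, and at 21.03 and 23.8 TPM in the WT and KO ureters, a log2 fold change of 7.04 ± 0.52 (6.25 without KO ureter and 7.85 without WT ureter). It was nearly unexpressed in the kidneys, where it had 20 to 117 counts. Col6a5 was at 0.34 to 1.41 TPM in the kidneys and 1.95 and 4.41 TPM in the WT and KO ureters (log2 2.41 ± 0.64). The Col6a5 call was lost without KO kidney 2 (log2 2.58), without WT kidney 2 (2.31) and without KO ureter (1.29). Col6a4 was at 0.58 to 1.58 TPM and 1.19 and 0.99 TPM and was not called (log2 0.40 ± 0.41).

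Among the FACIT collagens, Col14a1 and Col12a1, which coat fibrils in dense connective tissue, were higher in ureter. Col14a1 was at 25.6 to 41.4 TPM in the kidneys and 111 and 122 TPM in the WT and KO ureters (log2 2.23 ± 0.17). Col12a1 was at 26.3 to 33.7 TPM and 46.5 and 54.1 TPM (log2 1.14 ± 0.14). The type IX chains did not move together. Col9a1 was at 7.43 to 9.70 TPM in the kidneys and 15.0 and 14.7 TPM in the ureters (log2 1.20 ± 0.17), and Col9a2 at 6.56 to 9.07 TPM and 27.6 and 15.6 TPM (log2 1.78 ± 0.23). Col9a3 went the other way, from 4.90 to 6.15 TPM to 1.38 and 0.41 TPM (log2 -2.34 ± 0.45). The Col9a3 value was -3.34 without WT ureter and -1.61 without KO ureter, with the call kept in both. The TPM ratio of Col9a3 to Col9a1 was 0.57 to 0.78 in the kidneys and 0.09 and 0.03 in the ureters. Col16a1 was called higher (log2 0.52 ± 0.13), but its TPM ranges overlapped (57.1 to 75.7 in the kidneys, 80.1 and 63.4 in the ureters). That call was lost without WT kidney 2 (log2 0.49), without WT ureter (0.40) and under scaling by library size alone (0.23).

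Col20a1 was at 1.95 to 4.36 TPM in the kidneys and 6.72 and 2.48 TPM in the WT and KO ureters and was not called (log2 0.98 ± 0.48). Without KO ureter it was called (log2 1.73), and also without KO kidney 2 (1.29). Col19a1 and Col22a1 were scarce, at no more than 0.13 and 0.38 TPM in any library. Their log2 fold changes of 0.33 ± 2.18 and -1.10 ± 1.87 were not distinguishable from 0.

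The transmembrane collagens were split. Col13a1, which is found at cell junctions and at the neuromuscular junction, was at 15.2, 11.3, 12.0 and 13.5 TPM in WT kidney 1, WT kidney 2, KO kidney 1 and KO kidney 2 and at 3.05 and 0.63 TPM in the WT and KO ureters (log2 -2.61 ± 0.49). The Col13a1 value was -3.83 without WT ureter and -1.78 without KO ureter, with the call kept in both. Col17a1, the hemidesmosome collagen of basal epithelial cells, was at 0.28 to 0.40 TPM in the kidneys and 1.65 and 0.94 TPM in the ureters (log2 2.24 ± 0.38). Krt5 and Trp63, markers of basal urothelium, stood beside this at 0.49 to 1.63 and 1.32 to 1.54 TPM in the kidneys, and at 281 to 410 and 72.4 to 74.7 TPM in the ureters. Col23a1 was called higher (log2 0.77 ± 0.17) with overlapping TPM ranges, 9.63 to 12.0 in the kidneys and 18.3 and 11.5 in the ureters. Its call was lost without WT ureter (log2 0.43) and under scaling by library size alone (0.49). Col25a1 was at 3.503, 3.33, 1.04 and 2.92 TPM in the kidneys and 0.40 and 2.45 TPM in the WT and KO ureters (log2 -0.57 ± 0.89, not called). Its sign depended on the ureter library kept, with a log2 fold change of 0.82 without WT ureter and of -2.74, with a call, without KO ureter.

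Col26a1 was at 43.1 to 61.0 TPM in the kidneys and 8.04 and 6.87 TPM in the ureters (log2 -2.39 ± 0.16), a clear separation. The short chain collagen Col8a1, of vessel and corneal endothelium, was at 6.99 to 10.2 TPM in the kidneys and at 5.56 and 2.27 TPM in the WT and KO ureters. It was not called (log2 -0.77 ± 0.33), but was called without WT ureter (log2 -1.45). Its partner Col8a2 was called higher (log2 0.47 ± 0.15, edgeR adjusted p = 0.0464), with TPM ranges of 15.3 to 18.3 in the kidneys and 23.0 and 13.5 in the ureters that overlapped. The Col8a2 call held in 7 of 18 alternatives and was lost without KO kidney 2 (log2 0.48), WT kidney 1 (0.47), WT kidney 2 (0.39) or WT ureter (0.19). Col28a1 had 2 to 25 counts in the kidneys and was not called (log2 1.85 ± 2.27), but it was called higher in the WT libraries alone (log2 3.97, edgeR adjusted p = 0.0158). Col10a1, the collagen of hypertrophic cartilage, had 0 to 3 counts in every library and was not tested. For libraries with 0 counts, a count of 0 allows up to 0.0527 CPM in KO kidney 1 and 0.0824 in KO ureter, and these limits cover counting error only.

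The genes that modify, secrete, process, crosslink, bind and degrade collagen were followed through a list of 58 genes. In ureter, 24 were higher, 3 were lower and 31 were not called, with a median log2 fold change of 0.39. The shares over all genes tested were 21.4% higher and 23.7% lower. The fibril-associated proteins were all higher (7 of 7), from Bgn (biglycan, log2 0.97 ± 0.11) to Lum (lumican, log2 6.498 ± 0.32). Lum is also in the fibroblast marker list, which summed to 97.6 to 118.1 TPM in the kidneys and to 1343 and 1731 TPM in the WT and KO ureters. Of the propeptide processing genes, 4 of 7 were higher, from Adamts3, which was not called (log2 -0.08 ± 0.26), to Pcolce2, an enhancer of propeptide removal (log2 3.70 ± 0.60, with 2.53 without KO ureter and 4.70 without WT ureter). Of the crosslinking enzymes, 2 of 6 were higher, led by Lox, lysyl oxidase (log2 1.17 ± 0.11). Loxl3 was not called (log2 -0.52 ± 0.18, with -0.21 without KO ureter and -0.86 without WT ureter).

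Of 15 genes for proline and lysine hydroxylation and glycosylation, 4 were higher and 1 was lower. P4ha3, a prolyl hydroxylase subunit, had the largest value (log2 1.10 ± 0.22), and Plod2, a lysyl hydroxylase of collagen ends, was lower (log2 -1.42 ± 0.28). The P4ha3 call was lost without WT ureter (log2 0.70) and the Plod2 call without KO ureter (-1.17). Among 6 chaperone and export genes, Creb3l1, a transcription factor of collagen secretion, was higher (log2 1.22 ± 0.16) and was the single call, and Tmem38b had the smallest value (log2 -0.03 ± 0.23). Of 8 receptors, 2 were higher, a share near the 21.4% of all genes. They included Itga2, the alpha chain of a collagen-binding integrin (log2 2.49 ± 0.35). Itga11 had the smallest value without a call (log2 -1.02 ± 0.78). Its value depended on the ureter library kept, at 0.12 without KO ureter and -2.99 without WT ureter. Of 9 breakdown genes, 4 were higher and 2 were lower. Ctsk, cathepsin K, had the largest value (log2 1.68 ± 0.27). Mmp13, a collagenase, had 28 to 34 counts in the kidneys and 0 in both ureters. It was at least 4.8-fold lower against a floor of 3 counts per ureter library, a bound that covers counting error only.

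In kidney, no collagen gene was called between the libraries labelled Ahnak KO and WT. By the edgeR quasi-likelihood test, 0 of 43 members passed an adjusted p of 0.05 in either direction, and the background was 0.0% higher and 0.0121% lower of 16481 genes. No member had an unadjusted p under 0.05 either, a level that 227 genes (1.38%) reached, and DESeq2 also called 0 members, with 0 under an unadjusted p of 0.05. The 2 residual degrees of freedom limit this test. The median log2 fold change, KO over WT, was 0.09 for the members and -0.0041 for all genes, with 31 members above 0 and 12 below. By class it was 0.10 for fibrillar, 0.07 for basement membrane and 0.10 for other collagen genes. Each of these medians changed sign when 1 library was left out. The fibrillar median was -0.04 without KO kidney 1, the basement membrane median -0.11 without WT kidney 2, and the median of the others -0.05 without KO kidney 2 and -0.09 without WT kidney 2.

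The abundant chains lay close together between the labels. Col1a1 was at 838 and 618 CPM (counts scaled to library size and TMM factors, with no length correction) in the KO kidneys and 678 and 630 CPM in the WT kidneys, a log2 fold change of 0.16 ± 0.16. The ranges overlapped, and the value was -0.08 without KO kidney 1. The type IV network genes ranged from -0.15 to 0.09 and the major fibril genes (Col1a1, Col1a2, Col2a1 and Col3a1) from 0.03 to 0.16. Larger values belonged to scarce genes. Col6a6 had 20 and 37 counts in the KO kidneys and 117 and 35 in the WT kidneys (log2 -1.21 ± 0.75), and Col28a1 had 25 and 13 against 2 and 7 counts (log2 2.14 ± 1.08). Col25a1 had 215 and 589 counts against 842 and 693 counts (log2 -0.78 ± 0.45). It was low in KO kidney 1, and it was called (edgeR log2 -1.71, adjusted p = 0.0401) once KO kidney 2 was left out, as the single collagen call over all 4 such fits.

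In the pathway list, 0 of 58 genes were called in kidney, with 1 at an unadjusted p under 0.05, and the median log2 fold change was 0.02. That gene was Lox (log2 0.36 ± 0.11), which is named here after its value was seen.

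In ureter, each genotype had 1 library, so there is no replicate check and no test, and the ratios compare these libraries, not the genotypes. Of the 43 members that reached 10 counts in either library, 2 were over 2-fold higher and 7 over 2-fold lower in the library labelled Ahnak KO. Of the 16117 genes compared, 4.44% were over 2-fold higher and 5.78% over 2-fold lower. These 9 members belonged to the other collagen class. With library size alone there were 11 (2 higher, 9 lower), with the fibrillar genes Col2a1 (log2 ratio -1.05) and Col11a2 (-1.08) added, and with log2(CPM + 0.1) there were 10 (2 higher, 8 lower), with Col2a1 (-1.16) added. The 11 fibrillar genes had log2 ratios of -0.91 to 0.43 (median 0.05), and the 9 basement membrane genes of -0.64 to 0.46 (median 0.06). The summed collagen TPM of 6420 in KO and 6439 in WT differed little. These sums are not scaled by the TMM factors of the ratios, which were 0.935 for KO ureter and 1.069 for WT ureter. Such scaling raises KO ureter relative to WT ureter.

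Col25a1 was the member with the highest ratio, with 354 counts in KO ureter and 89 counts in WT ureter (log2 ratio 2.44), although KO ureter was the shallower library. Col6a5 followed with 797 and 536 counts (log2 ratio 1.31). Col13a1 had the lowest ratio of the members with counts in both libraries, with 39 counts in KO and 280 counts in WT (log2 ratio -1.68). Col9a3 had 23 and 117 counts (log2 ratio -1.08), Col20a1 had 203 and 831 counts (log2 ratio -1.18), and Col8a1 had 227 and 838 counts (log2 ratio -1.04). Col2a1 and Col11a2, which share cartilage as a main site with Col9a3, were just inside the limit. They had 30 and 151 counts in KO against 123 and 512 counts in WT, for log2 ratios of -0.91 and -0.90. The other type IX and XI chains did not move alike, with log2 ratios of -0.62 for Col9a2, -0.07 for Col11a1 and 0.21 for Col9a1. In log2(FPKM + 0.5), 1 member was over 2-fold higher and 3 were lower.

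Col22a1, Col28a1 and Col19a1 were at 0 counts in KO ureter and at 60, 58 and 41 counts in WT ureter. Against a floor of 3 counts in KO ureter, they were at least 11.6-fold, 11.2-fold and 7.92-fold lower if counting error in KO ureter is the only error. These bounds do not cover the spread between libraries or a gene listed at 0 for another reason. A listing at 0 was not rare in KO ureter: of the 396 genes with 50 to 70 counts in WT ureter, 17.2% were at 0 there, against 4.92% of 427 genes in the reverse direction. Col22a1 was also at 0 in KO kidney 1, against 52 counts in KO kidney 2. Col19a1 was at 0 in WT kidney 2, against 27 counts in WT kidney 1. Some marker genes of other tissues differed between these libraries too, and the labels do not say where their transcripts came from. Striated muscle markers summed to 125 TPM in KO ureter and 232 TPM in WT ureter, and the 4 genes of the brown fat list to 8.53 and 2.201 TPM. Most of that sum was Adipoq, a gene of fat in general (7.06 and 0.49 TPM), while the brown fat genes Ucp1 (0 and 0.21 TPM) and Cidea (0.53 and 1.503 TPM) were lower in KO ureter. The cartilage and bone list summed to 20.1 and 19.9 TPM. Within it Acan was at 0.056 and 0.45 TPM, Comp at 0 and 0.52 TPM and Matn3 at 0 and 0.16 TPM, while Hapln1 was at 4.81 and 3.02 TPM and Ibsp at 1.68 and 1.63 TPM. Their part in the collagen ratios was not tested.

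**Figure D5:**
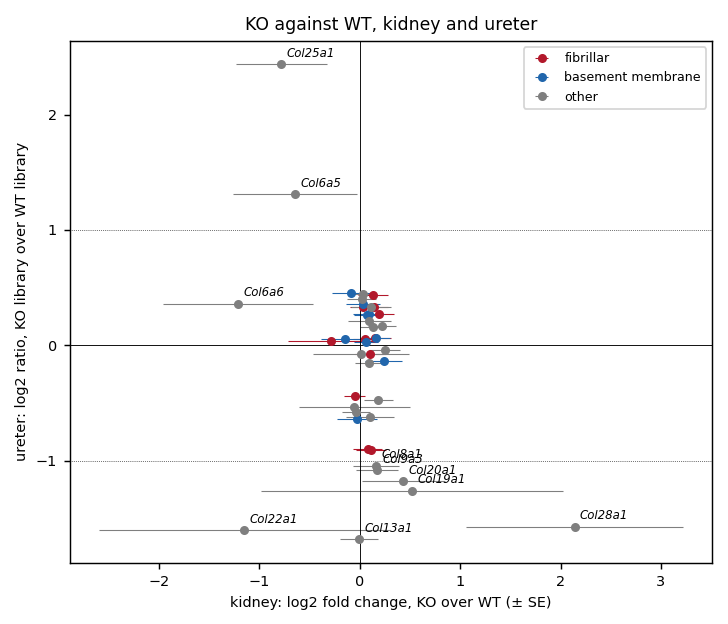
Log2 fold change of KO over WT in kidney (x axis, ± SE from edgeR, 2 libraries each) against the log2 ratio of the KO to the WT library in ureter (y axis, 1 library each) for 43 collagen genes, colored by class, with dotted lines at 2-fold in ureter. In ureter, fibrillar genes lie between -0.91 and 0.43 and basement membrane genes between -0.64 and 0.46. The 9 genes past 2-fold in ureter, from Col25a1 at 2.44 to Col13a1 at -1.68, are of the other class, and the 3 of them with 0 counts in KO ureter are drawn with the pseudocount of 0.5 CPM.

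A test of whether the KO effect differed between ureter and kidney called 0 of 43 members in edgeR (adjusted p under 0.05), against a background of 0.108% of 17557 genes. An unadjusted p under 0.05 was reached by 8 members (1 higher, 7 lower) and by 12.4% of all genes, and DESeq2 called 2 members (Col25a1 higher, Col13a1 lower) and 476 of the 17557 genes. The spread in this test comes from the kidney replicates alone and the lone ureter libraries are assumed to vary like them. The kidney CPM of KO and WT did not overlap for 7 of 43 members, against 4020 of 15348 genes (26.2%). No overlap together with a ureter ratio of the other sign was found for 5 of the 43 members, a share near the 9.79% of all these genes. Within the non-overlapping ones, that was 5 of 7 members and 1503 of 4020 genes. Col13a1 had the smallest p, with a difference in log2 effect of -2.05 ± 0.39 (edgeR adjusted p = 0.154). For Col25a1 the difference was 3.56 ± 0.85 (edgeR adjusted p = 0.211), and for Col2a1 it was -1.36 ± 0.32 (edgeR adjusted p = 0.202).

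In the pathway list, 2 of the 57 genes compared were over 2-fold higher and 3 over 2-fold lower in the KO ureter library, near the 4.44% and 5.78% of all genes, and the median log2 ratio was 0.07. Of these, Itga2 was higher (log2 ratio 1.23) and Itga11 was lower (log2 ratio -1.90). The others, named after their values were seen, were the collagenase Mmp8 (log2 ratio 1.62), the integrin chain Itga10 (-2.06) and the prolyl hydroxylase subunit P4ha1 (-1.37). P4ha1 was at 24.2 and 70.3 TPM in the KO and WT ureters. The WT kidneys lay further apart for this gene, at 21.8 TPM in WT kidney 1 and 97.8 TPM in WT kidney 2.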

How the data were processed

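Kidney and ureter RNA of PN1 mice was sequenced. Per the methods, libraries were made with a stranded TruSeq mRNA kit and reads were mapped with STAR to GRCm39, whereas the submitters' processing notes name Trimmomatic 0.38, HISAT2 2.1.0, StringTie 1.3.4b and mm10, so the build of the counting was not settled. Gene spans and sequences printed are from RefSeq and GENCODE M21 on GRCm38. The authors deposited estimated counts, FPKM and TPM per gene, and columns of their own comparisons, which were not used. The deposited expected counts were whole numbers and were tested as such. TPM, as deposited, gave levels between genes.

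Genes kept by filterByExpr were fitted with edgeR 4.0.16 (quasi-likelihood test, TMM, Benjamini-Hochberg over all genes tested), with R 4.3.3. The tissue fit used all 6 libraries with genotype as a term, the genotype fit used the 4 kidney libraries, and a tissue by genotype term was fitted over all 6. An SE was taken as the size of a log2 fold change over the root of its F statistic. Ureter ratios were log2(CPM + 0.5) with TMM factors and at least 10 counts in the higher library. DESeq2 1.42.0, limma 3.58.1 on the deposited FPKM, other scalings, filters and left-out libraries were alternatives. A fold change on log2(FPKM + pseudocount) understates that of low genes. The fits were run on simulated data with a smaller spread than these libraries and with large changes in well-counted genes. That run checked the code and does not show how often smaller changes would be found here. The kidney replicate numbers were not shown to pair the libraries. Every collagen gene could be named, and of each role of the pathway list the genes with the largest and the smallest log2 fold change. The members and lists were chosen with earlier results of these data known. One marker gene is not reported here. Marker lists were described by summed TPM: endothelium 371 to 433 in kidney and 242 and 274 in ureter, skin epidermis 7.47 to 10.5 and 36.4 and 37.9, and Schwann cell and neuron 7.30 to 9.48 and 14.2 and 18.4.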

Additional observations from a re-analysis of the deposited data

Results flagged for a closer look

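For 5 of the 43 members, both kidney libraries labelled KO lay on one side of both WT kidneys while the ureter ratio had the other sign. The same held for 9.79% of the 15348 genes compared. Col25a1 had a log2 ratio of 2.44 in ureter and a log2 fold change of -0.78 in kidney, and the difference had an edgeR adjusted p of 0.211. Col9a3 had -1.08 in ureter and 0.17 in kidney, with an edgeR adjusted p of 0.242 for the difference. Col28a1 had -1.57 in ureter and 2.14 in kidney (edgeR adjusted p = 0.262), from 0 to 58 counts per library. Col23a1 had -0.48 and 0.18 (edgeR adjusted p = 0.359), and Col26a1 had -0.038 and 0.25 (edgeR adjusted p = 0.756). None of the 5 differences passed the adjusted threshold.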

How the results depend on the processing

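The tissue counts kept within 1.5 times of their value under every alternative run, with 29 to 35 collagen genes called. Leaving out each library in turn gave 29 to 34 calls, and the fit with the replicate block gave 32 (21 higher, 11 lower). The kidney genotype count was 0 in every alternative, the replicate block and the crossed pairing included, except without KO kidney 2, where Col25a1 was called (0 to 1 over the left-out libraries, 0 to 1 lower). The kidney replicate numbers had a correlation of deviations of -0.28 over 2 pairs, so they were crossed as an alternative chosen after seeing the data. The ureter count fell from 9 to 4 genes past 2-fold (1 higher, 3 lower) in log2(FPKM + 0.5), and was 11 with library size alone and 10 in log2(CPM + 0.1). The difference between tissues in the KO effect went from 0 to 2 members in DESeq2 (1 higher, 1 lower), to 0 to 1 (0 to 1 higher) over left-out kidney libraries, with Col25a1 called without KO kidney 1 and without KO kidney 2, and to 8 (1 higher, 7 lower) at an unadjusted p under 0.05. The left-out libraries and the unadjusted p in this test were chosen after seeing the data. Over all genes, DESeq2 called 44 against 2 in edgeR for the kidney genotype and 476 against 19 for this difference. The cause was not tested.

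Members that changed sign were not called in the tissue comparison. Col18a1 went to -0.0628 with library size alone and to -0.0162 and -0.0163 in limma on log2(FPKM + 1) and log2(FPKM + 0.1). In the KO libraries only, Col19a1 went to -6.80, Col28a1 to -6.99 and Col25a1 to 0.82, and in the WT libraries only, Col22a1 went to 0.25. Over left-out libraries, Col19a1 ranged from -6.97 to 2.04, Col22a1 from -7.64 to 0.26, Col25a1 from -2.74 to 0.82 and Col28a1 from -7.16 to 3.96. In the kidney genotype comparison with all 6 libraries in one fit, Col6a5 went to 0.0161, Col20a1 to -0.113, Col23a1 to -0.0367 and Col25a1 to 0.25. Over left-out libraries, Col1a1 ranged from -0.0834 to 0.36, Col6a5 from -1.55 to 0.18 and Col20a1 from -0.18 to 0.87.

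The limits are 1 ureter library per genotype, 2 kidney libraries per genotype, and few counts for Col10a1, Col19a1, Col22a1 and Col28a1, which limit the precision of their values. The ureter column names share codes with kidney replicate 2 of each genotype, and the labels do not say that a code marks an animal. With those 4 libraries alone, an alternative chosen after seeing the data, 29 collagen genes were called (19 higher, 10 lower).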
